A study of Mus musculus with 6 samples.

Results

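The transcripts of 10 genes of contractile cells were followed in wounded mouse epidermis, 5 of smooth muscle (Acta2, Tagln, Myh11, Cnn1 and Des) and 5 of skeletal muscle (Acta1, Myh4, Atp2a1, Ckm and Mylpf), out of 47455 gene symbols listed. The 10 genes were chosen by name with their wounded and non-wounded values already known. Their differences between wounded and non-wounded tissue are therefore a description, given without a test. Whole epidermis came from 3 C57BL/6 mice aged 6 to 8 weeks, and each mouse gave 1 non-wounded and 1 wounded library. Wounded tissue was taken 2 h after 8 punch wounds of 3 mm had been made in the back, and a collection time of the non-wounded tissue was not taken from the labels. Trypsin was used to lift the epidermis off the dermis, RNA was isolated with Trizol followed by a column, and poly-dT capture was used for the libraries. Both groups thus came from the same mice, and no transgene is named.

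Smooth and skeletal muscle use different members of the same protein families. Smooth muscle contracts through alpha smooth muscle actin and smooth muscle myosin, and in skin it forms the walls of arteries and the small muscles that raise hairs. Skeletal muscle is built of sarcomeres with their own actin and myosins, and in mouse back skin a thin sheet of it, the panniculus carnosus, lies beneath the dermis. Serum response factor binds a DNA motif called the CArG box in promoters of both programmes.

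The promoters of the genes with the largest differences are shown because the capitals mark their CArG boxes, with at most 1 G or C in the core of A and T. They come from RefSeq (GRCm38.p6) and run from base -250 to base 49, counted from the start site at 0, 5′ to 3′ on the strand of the gene.
Acta2 promoter, chr19:34255324-34255623, minus strand: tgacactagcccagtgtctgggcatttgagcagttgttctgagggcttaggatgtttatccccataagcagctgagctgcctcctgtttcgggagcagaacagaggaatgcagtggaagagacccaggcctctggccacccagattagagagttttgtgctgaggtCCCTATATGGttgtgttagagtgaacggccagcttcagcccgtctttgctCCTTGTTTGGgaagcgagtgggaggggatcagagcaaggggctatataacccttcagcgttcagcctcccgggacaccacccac
Acta1 promoter, chr8:123894726-123895025, minus strand: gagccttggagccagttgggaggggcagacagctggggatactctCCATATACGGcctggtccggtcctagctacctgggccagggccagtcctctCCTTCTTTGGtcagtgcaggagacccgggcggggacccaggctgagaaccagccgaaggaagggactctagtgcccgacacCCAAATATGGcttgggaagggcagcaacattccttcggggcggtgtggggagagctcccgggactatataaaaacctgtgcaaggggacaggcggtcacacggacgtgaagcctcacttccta
Myh4 promoter, chr11:67237562-67237861, plus strand: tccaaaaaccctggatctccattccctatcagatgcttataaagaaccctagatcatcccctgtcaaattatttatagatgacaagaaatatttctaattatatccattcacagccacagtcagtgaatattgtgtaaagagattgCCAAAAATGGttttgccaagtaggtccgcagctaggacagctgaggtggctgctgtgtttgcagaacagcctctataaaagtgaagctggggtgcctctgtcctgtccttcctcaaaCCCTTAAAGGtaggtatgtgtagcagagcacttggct
In the Acta2 window the boxes began 84 and 34 bases before the start site, and each had 1 G or C in its core. The Acta1 window held a full CArG box 73 bases before the start site, and 2 boxes with 1 G or C in the core farther upstream. In the Myh4 window a full CArG box lay 104 bases before the start site, and a box with 1 G or C lay after the start site. RefSeq entries were held for 8 of the 10 genes, and Tagln and Myh11 are named only. The full CArG box was found in 2 of the 8 windows and in 1.63% of 32851 promoter windows of the same length, searched on both strands. The looser box, of which the full box is a case, was found in 6 of the 8 and in 9.98% of all windows. The E-box CANNTG, bound by the myogenic factors, was found in all 8 windows and in 72.3% of all windows. A match describes these letters and not a binding site. Distances count from base 0 of the RefSeq windows. In GENCODE the genes Acta2, Acta1 and Myh4 begin elsewhere, at base 34255590, 123894751 and 67238029 of their chromosomes.

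The 6 libraries held between 20746185 and 26814845 rounded estimated counts. The edgeR quasi-likelihood test called 3859 of 16079 tested genes higher and 3917 lower in wounded epidermis (48.4% in all) at a Benjamini-Hochberg adjusted p under 0.05. With library totals alone in place of TMM scaling, 2168 were higher and 6655 lower, so folds below are relative to TMM. The libraries were those of epidermis by their markers: the 6 keratinocyte genes summed to between 31972 and 36769 TPM in non-wounded and between 26521 and 28854 TPM in wounded tissue. TPM are the deposited values per transcript length, and CPM are counts scaled by library size and TMM factor. In such bulk samples, fewer cells of a type and less RNA per cell cannot be told apart.

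Acta2, alpha smooth muscle actin, was the only one of the 10 genes whose values lay wholly lower in wounded tissue. It lies on chromosome 19, 34241090 to 34255590, on the minus strand of GRCm38. Mice 1, 2 and 3 had 244, 143 and 461 counts in non-wounded tissue and 28, 19 and 26 in wounded tissue. Every wounded library was below every non-wounded one. The mean level was 11.2 ± 6.96 CPM in non-wounded and 1.17 ± 0.325 CPM in wounded tissue (SD, n = 3), a log2 fold change of -3.27 (SE 0.45), or 9.62-fold lower. Within mice the wounded level was 0.142, 0.147 and 0.0740 of the non-wounded level, with exact 95% intervals from counting error of 0.0923 to 0.210, 0.0858 to 0.238 and 0.0478 to 0.110. The non-wounded libraries differed among themselves by far more than counting error, with a variance 110 times that expected from counting, against 2.03 times in the wounded ones. When the highest library, that of non-wounded tissue of mouse 3, was left out, the log2 fold change was -2.66. The deposited TPM gave the same order, at 7.70, 4.38 and 15.7 in non-wounded and 0.840, 0.506 and 0.933 in wounded libraries.

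The other smooth muscle genes did not follow Acta2. Tagln encodes transgelin, an actin-binding protein of smooth muscle (chromosome 9, 45929619 to 45936058, minus strand). Its counts were 48, 56 and 39 in non-wounded and 44, 56 and 50 in wounded libraries. In CPM the groups overlapped, at 1.85 ± 0.266 and 2.37 ± 0.317 (SD, n = 3), with a log2 fold change of 0.35 (SE 0.29). In TPM the means were closer, at 1.73 ± 0.223 and 1.75 ± 0.274. The spread between its libraries was no larger than counting error, with a variance 0.970 and 0.847 times that expected.

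Cnn1 and Des were higher in each wounded library, from few counts. Cnn1, calponin of smooth muscle (chromosome 9, 22099216 to 22109630, plus strand), had 5, 3 and 0 counts in non-wounded and 14, 7 and 6 in wounded libraries. The 0 in the non-wounded library of mouse 3 allows up to 0.123 CPM, and the wounded library of that mouse stood at 0.323 CPM. Des encodes desmin, an intermediate filament protein shared by smooth and striated muscle (chromosome 1, 75360329 to 75368579, plus strand). Its counts were 0, 3 and 3 in non-wounded and 13, 9 and 13 in wounded libraries, and in neither gene did the groups overlap in CPM. Myh11, the heavy chain of smooth muscle myosin (chromosome 16, 14194535 to 14291372, minus strand), had 2, 0 and 1 counts against 1, 0 and 3, at or under the floor of 3 counts throughout. These 3 genes were too low to enter the test, and together they had 17 counts in non-wounded and 66 in wounded tissue. Without Acta2, the summed level of the smooth muscle genes was 2.09, 2.36 and 1.77 CPM in non-wounded and 3.37, 3.03 and 3.88 CPM in wounded libraries of mice 1, 2 and 3. That sum was higher in wounded tissue in each mouse, whereas the sum with Acta2 was lower in each, at 11.3, 7.81 and 20.7 against 4.68, 3.83 and 5.28 CPM.

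**Figure D1:**
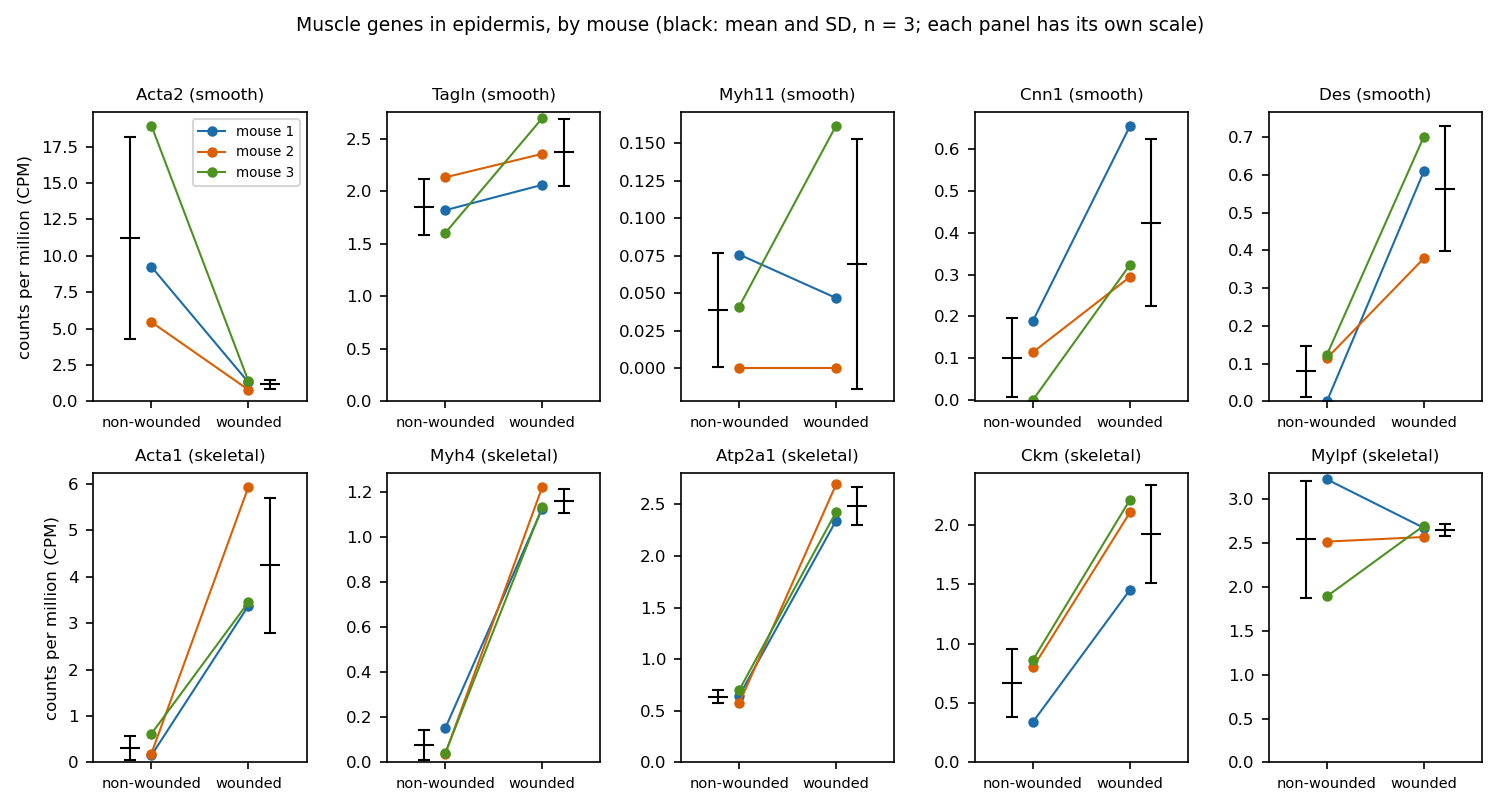
CPM of each of the 10 genes in non-wounded and wounded epidermis (y axis, a scale of its own in each panel). Coloured lines join the 2 libraries of a mouse and black bars give the mean and SD of 3 libraries. Acta2 lies at 11.2 CPM in non-wounded and 1.17 CPM in wounded tissue on average, Tagln and Mylpf overlap between groups, and Acta1, Myh4, Atp2a1 and Ckm lie higher in every wounded library.

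Of the 5 skeletal muscle genes, 4 were higher in every wounded library than in any non-wounded one. Acta1 encodes skeletal muscle actin, the thin filament protein that takes the place of Acta2 in sarcomeres (chromosome 8, 123891769 to 123894751, minus strand). It had 4, 5 and 15 counts in non-wounded and 72, 141 and 64 in wounded libraries of mice 1, 2 and 3. Its mean was 0.320 ± 0.258 CPM in non-wounded and 4.25 ± 1.46 CPM in wounded tissue (SD, n = 3), with a log2 fold change of 3.74 (SE 0.51). Within mice the wounded level was 22.2, 31.2 and 5.60 times the non-wounded one, with intervals from counting error of 8.32 to 83.8, 13.0 to 97.4 and 3.15 to 10.6. The difference was thus largest in mouse 2 and smallest in mouse 3, whose non-wounded library had the most Acta1. Without that non-wounded library the log2 fold change was 4.59.

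Myh4 encodes the myosin heavy chain of the fastest fibres, type IIb (chromosome 11, 67238029 to 67260446, plus strand). Its counts were 4, 1 and 1 in non-wounded and 24, 29 and 21 in wounded libraries. The mean was 0.0770 ± 0.0647 CPM in non-wounded and 1.16 ± 0.0533 CPM in wounded tissue (SD, n = 3), a log2 fold change of 3.81 (SE 0.60) that was 4.69 when non-wounded tissue of mouse 1 was left out. The wounded libraries were close to each other, and the size of the ratio rests on 6 counts in all of the non-wounded tissue. Of 31-base stretches of its transcripts, 69.6% occurred in no other gene and 1162 were shared with Myh1, so some reads of fast myosins could be divided between genes.

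The other fibre myosins had few counts as well. Myh7, the slow fibre and heart myosin, passed the test with 2, 12 and 3 counts in non-wounded and 21, 21 and 23 in wounded libraries (log2 fold change 2.20, SE 0.63, edgeR adjusted p = 0.0145). Leaving out the non-wounded library of mouse 1 gave an adjusted p of 0.0515 and leaving out that of mouse 3 gave 0.0553, and log2(TPM + 1) gave 0.0535, in a range of 0.00503 to 0.0553 over all alternatives. Myh1 of type IIx fibres had 10 counts in non-wounded and 27 in wounded tissue, and Myh2 of type IIa fibres had 11 and 20. Neither entered the test, and in both the groups overlapped. In wounded tissue the mean TPM of these myosins was 0.299 for Myh7, 0.206 for Myh4, 0.0989 for Myh1 and 0.0578 for Myh2.

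Atp2a1 encodes SERCA1, the pump that returns calcium to the sarcoplasmic reticulum of fast fibres (chromosome 7, 126445858 to 126463108, minus strand). It had 17, 15 and 17 counts in non-wounded and 50, 64 and 45 in wounded libraries. Its mean was 0.638 ± 0.0639 CPM in non-wounded and 2.49 ± 0.183 CPM in wounded tissue, with a log2 fold change of 1.96 (SE 0.33, n = 3), and the ratio within mice was 3.63, 4.71 and 3.47. It was the steadiest of the 4 in this ratio. Rabep2 overlaps 763 exon bases of Atp2a1 on the other strand and had 560 to 711 counts in non-wounded and 249 to 352 in wounded libraries, the opposite order, and the strand setting of the counting is not given in the sources used here. Ckm encodes the creatine kinase of muscle (chromosome 7, 19404776 to 19422841, plus strand). Its counts were 9, 21 and 21 in non-wounded and 31, 50 and 41 in wounded libraries, with a log2 fold change of 1.52 (SE 0.44) and within-mouse ratios of 4.26, 2.63 and 2.56. An antisense gene, A930016O22Rik, overlaps 451 of its exon bases and had 4, 14 and 7 against 11, 18 and 16 counts.

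Mylpf, the regulatory light chain of fast skeletal myosin, stood apart from the other 4 (chromosome 7, 127208890 to 127214298, plus strand). It had 85, 66 and 46 counts in non-wounded and 57, 61 and 50 in wounded libraries. The groups overlapped, at 2.54 ± 0.666 and 2.64 ± 0.0683 CPM (SD, n = 3), with a log2 fold change of 0.05 (SE 0.28). It was lower in wounded tissue in mouse 1 and higher in mouse 3, with ratios of 0.829 and 1.43. With library totals alone its log2 fold change was -0.27. Per transcript length Mylpf was the highest of the 10 genes, at 18.5 ± 4.78 TPM in non-wounded and 14.3 ± 0.990 TPM in wounded tissue, against 0.335 ± 0.273 and 3.52 ± 1.11 TPM for Acta1. That rank rests on the short length implied by its count and TPM, 162 to 228 bases, which is taken up below. In CPM Mylpf was below Acta2 in non-wounded tissue (11.2 CPM) and below Acta1 in wounded tissue (4.25 CPM).

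Of the 10 genes, 6 had CPM ranges wholly higher and 1 wholly lower in wounded tissue, as did 28.8% and 29.7% of all tested genes. Since these values chose the genes, nothing is read from that count. For the 7 that entered the edgeR fit no call is given, for the same reason. Of all tested genes 24.0% passed as higher and 24.4% as lower. Of the 4488 tested genes with a mean under 3 CPM, 9.36% and 14.8% did (24.1% in all).

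Count divided by TPM gives the length of the transcripts to which reads were assigned, here on a scale set by 555 genes with 1 annotated transcript. For Acta2 that length was between 1686 and 1687 bases in all 6 libraries, and for Tagln between 1478 and 1479, so that the length did not differ between libraries for these genes. The GENCODE transcripts of Acta2 have 2035 and 826 bases, and neither is the implied length. For Mylpf it was between 162 and 228 bases. Its coding GENCODE transcripts have 268, 466, 653 and 766 bases, and its retained-intron transcripts have 165 and 285. In mice 1, 2 and 3 it was 2484, 2683 and 2712 bases for Ckm in non-wounded tissue and 1114, 1020 and 2156 in wounded tissue, beside annotated transcripts of 2742, 1235 and 671 bases. The reads of Ckm were thus assigned to shorter transcripts in each wounded library. Atp2a1 varied without a common direction, at 1245, 2564 and 1453 against 2849, 1931 and 1539 bases. For Des the length was 3017 bases in both non-wounded libraries with a count, and 1761, 762 and 2935 bases in the wounded ones, where its transcripts have 3028, 835 and 784 bases. The annotation release used by the authors is not given in the sources used here and may differ, and short transcripts come out too short on this scale because fragment ends are not allowed for.

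**Figure D2:**
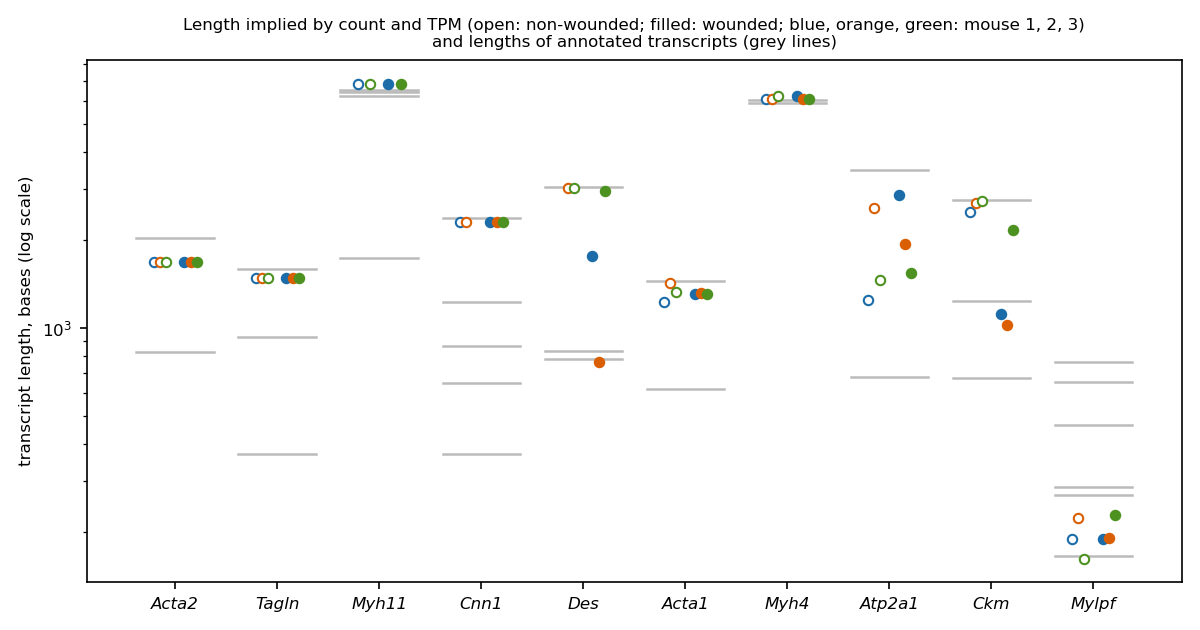
Transcript length in bases implied by count and TPM (y axis, log scale) for each gene in each library, open for non-wounded and filled for wounded, coloured by mouse. Grey lines are GENCODE transcript lengths. Acta2 stays at 1686 to 1687 bases, Ckm moves from 2484 to 2712 bases in non-wounded libraries to 1020 to 2156 in wounded ones, and Mylpf stays at 162 to 228 bases.

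The balance of smooth to skeletal transcripts depended on single genes and on the unit. Per transcript length, the 5 smooth muscle genes together in mice 1, 2 and 3 stood at 0.381, 0.401 and 0.956 of the 5 skeletal ones in non-wounded tissue and at 0.148, 0.124 and 0.177 of them in wounded tissue (ratio of summed TPM). Without Mylpf among the skeletal genes, the same ratio was 8.47, 7.20 and 9.72 in non-wounded and 0.574, 0.330 and 0.563 in wounded libraries. Without Acta2 among the smooth muscle genes, it was 0.0740, 0.129 and 0.0875 against 0.107, 0.102 and 0.129, and the groups overlapped. In summed TPM, which programme was in excess in non-wounded epidermis therefore turned on Mylpf, the gene with the shortest implied length, and the groups did not separate without Acta2 when Mylpf was kept. In summed CPM, which are not per length, neither held. The CPM ratio of all 5 to all 5 genes was 2.51, 1.90 and 5.04 in non-wounded and 0.427, 0.264 and 0.443 in wounded libraries. Without Acta2 the CPM ratio was 0.462, 0.574 and 0.430 against 0.308, 0.209 and 0.326, with no overlap. With both left out, the TPM ratio was 1.65, 2.31 and 0.889 in non-wounded and 0.415, 0.272 and 0.410 in wounded libraries, again with no overlap. For the muscle actins, Acta2 stood at 44.3, 24.1 and 24.1 times the TPM of Acta1 in non-wounded libraries and at 0.301, 0.105 and 0.314 times in wounded ones.

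The remaining actins had smaller differences. The cytoplasmic actins Actb and Actg1 were at 40655 to 52018 and at 119820 to 165030 counts a library. Both rose relative to TMM scaling, with log2 fold changes of 0.30 (SE 0.09, edgeR adjusted p = 0.0185) and 0.54 (SE 0.10, edgeR adjusted p = 0.00117), but Actb was at -0.027 with library totals alone and at -0.067 with log2 TPM, and Actg1 did not pass in those 3 fits. For Actb, leaving out the wounded library of mouse 1 gave an adjusted p of 0.0665 and leaving out that of mouse 2 gave 0.0625. Over all alternatives it ranged from 0.000942 to 0.814 for Actb and from 1.28e-08 to 0.153 for Actg1. Actc1 of heart and Actg2 of visceral smooth muscle had 2 and 7 counts in non-wounded and 2 and 11 in wounded tissue. Of the 31-base stretches of Acta1 and Acta2, 95.9% and 98.6% occurred in no other gene, and 57 of Acta1 were shared with Actb.

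Of 20 other smooth muscle genes, none that was tested had a log2 fold change as low as that of Acta2. Of these, 16 entered the edgeR test, 1 passed as higher and 3 as lower, against 24.0% and 24.4% of all tested genes, and their median log2 fold change was -0.17 beside -0.03 for all tested genes. Csrp1, an actin-associated LIM protein, fell from 580 ± 113 to 385 ± 27.7 CPM (log2 fold change -0.59, SE 0.13, adjusted p = 0.00435). Ppp1r12b, a targeting subunit of myosin phosphatase, fell from 28.8 ± 6.19 to 18.6 ± 2.17 CPM (log2 fold change -0.63, SE 0.17, adjusted p = 0.00961). The third was the actin-binding protein nexilin, Nexn, named after its values were seen, which fell from 5.03 ± 1.26 to 2.54 ± 0.526 CPM (log2 fold change -0.99, SE 0.27, adjusted p = 0.0123). Nexn was at an adjusted p of 0.0533 when non-wounded tissue of mouse 1 was left out and of 0.144 and 0.147 with log2 TPM (range 0.00225 to 0.147). Tpm2, beta tropomyosin, was the gene that rose, from 22.1 ± 3.07 to 33.7 ± 3.56 CPM (log2 fold change 0.61, SE 0.13, adjusted p = 0.00389). Its adjusted p was 0.0981 with library totals and 0.0706 and 0.0717 with log2 TPM, in a range of 0.000245 to 0.0981 over all alternatives. With the mouse as a block, Tpm1 passed as a second higher gene (log2 fold change 0.31, adjusted p = 0.0327), as it did when the non-wounded library of mouse 3 was left out (0.58, adjusted p = 0.00565, in a range of 0.00565 to 0.991). With all 6 libraries and no block, Tpm1 was at 0.27 (SE 0.20, adjusted p = 0.299) and Smtn, smoothelin, at 0.12 (SE 0.11, adjusted p = 0.386). The 4 genes too low for the test had 22 counts in non-wounded and 30 in wounded tissue. In non-wounded tissue Csrp1, Tpm1, Smtn, Ppp1r12b and Tpm2 were at 580, 313, 49.8, 28.8 and 22.1 CPM, above Acta2 at 11.2 CPM. Most of the other tested genes of the list were below Acta2. Which cells held these transcripts was not tested, so the list does not show how smooth muscle cells as such changed.

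Regulators of the smooth muscle programme were measured as well. Of 7 genes, 6 entered the edgeR test, 2 passed as lower and none as higher, beside 24.4% and 24.0% of all tested genes. Srf, which encodes serum response factor, fell from 259 ± 24.3 to 149 ± 4.71 CPM (log2 fold change -0.79, SE 0.09, adjusted p = 9.01e-05). Mkl2, a myocardin-related coactivator of Srf, fell from 38.6 ± 2.08 to 23.2 ± 0.618 CPM (log2 fold change -0.73, SE 0.10, adjusted p = 0.000231). Both were lower in 3 of 3 mice, and both passed under each alternative run. Its relative Mkl1 was at 28.3 ± 1.88 and 31.5 ± 3.61 CPM, Gata6 had 1694 and 1369 counts, and neither passed (adjusted p = 0.301 and 0.877).

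Of 59 other skeletal muscle genes, 21 entered the edgeR test, and these moved in both directions. Higher levels passed for 5 and lower levels for 5, 47.6% in all beside 48.4% of all tested genes, and their median log2 fold change was 0.31. Tnnt3, the fast fibre troponin T, had 3, 0 and 9 counts in non-wounded and 49, 48 and 21 in wounded libraries (log2 fold change 3.49, SE 0.75, adjusted p = 0.00343). Pygm, the glycogen phosphorylase of muscle, had 3, 1 and 1 counts against 21, 22 and 18 (log2 fold change 3.78, SE 0.60, adjusted p = 0.000541). These folds were of the size of those of Acta1 and Myh4. Ampd1, the AMP deaminase of muscle, rose from 0.559 ± 0.458 to 1.89 ± 0.158 CPM (log2 fold change 1.75, SE 0.58, adjusted p = 0.0302). Jph1, a protein of the junction between surface membrane and sarcoplasmic reticulum, rose from 2.04 ± 0.284 to 5.64 ± 0.295 CPM (log2 fold change 1.47, SE 0.23, adjusted p = 0.000496), and Myh7, given above, was the fifth.

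The genes that fell include the one with the highest TPM of the skeletal muscle lists. Tmod4, a tropomodulin that caps thin filaments of skeletal muscle, had 568, 674 and 787 counts in non-wounded and 91, 149 and 81 in wounded libraries. Its mean TPM was 82.0 in non-wounded and 12.3 in wounded tissue, and its CPM fell from 26.5 ± 5.46 to 4.97 ± 1.13 (log2 fold change -2.41, SE 0.20, adjusted p = 1.13e-05). No library of one group overlapped the other. Ldb3, a protein of the Z disc, fell from 0.753 ± 0.437 to 0.198 ± 0.0788 CPM (log2 fold change -1.87, adjusted p = 0.0298). Ryr1, the calcium release channel, fell from 4.85 ± 0.377 to 2.98 ± 0.233 CPM (log2 fold change -0.70, adjusted p = 0.0215). Srl, sarcalumenin of the sarcoplasmic reticulum, fell from 1.34 ± 0.443 to 0.571 ± 0.211 CPM (log2 fold change -1.23, adjusted p = 0.0486). Pfkm, the phosphofructokinase of muscle, fell from 17.3 ± 3.63 to 11.2 ± 1.97 CPM (log2 fold change -0.62, adjusted p = 0.0193).

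Tnnt3, Pygm and Tmod4 passed under each alternative run, and the other calls were less firm. Leaving out any 1 library left 2 or 3 genes lower in place of 5, with 2 without the wounded library of mouse 1 or mouse 3 and 3 without each of the other libraries. Srl was at adjusted p = 0.152 and 0.122 when non-wounded tissue of mouse 1 or 3 was left out, and at 0.157 and 0.109 when wounded tissue of mouse 2 or 3 was (range 0.0160 to 0.157). With all 6 libraries, Srl was at 0.0505 with DESeq2 size factors in edgeR, 0.0603 without the filter on low counts and 0.0665 with DESeq2. Ldb3 passed with 1 library left out only when that was the non-wounded library of mouse 1 (range over all alternatives 0.0121 to 0.195), and was at 0.0532 with the mouse as a block. Ryr1 was at 0.0723 and 0.0687 when non-wounded tissue of mouse 2 or wounded tissue of mouse 1 was left out (range 0.00242 to 0.494). Pfkm was at 0.0771 when non-wounded tissue of mouse 1 was left out, and at 0.0544 and 0.0625 when wounded tissue of mouse 1 or 3 was (range 0.00161 to 0.0771). Ampd1 was at 0.0740 when non-wounded tissue of mouse 3 was left out, and at 0.0535, 0.0726 and 0.0733 when wounded tissue of mouse 1, 2 or 3 was (range 0.00278 to 0.0740). With all 6 libraries and log2 TPM, at a pseudocount of 1 and of 0.1, Jph1 was at 0.0885 and 0.126 (range 8.08e-07 to 0.126), Ldb3 at 0.195 and 0.110 and Ryr1 at 0.454 and 0.494. Ampd1 was at 0.0589 with library totals alone and at 0.0651 with log2(TPM + 0.1).

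**Figure D3:**
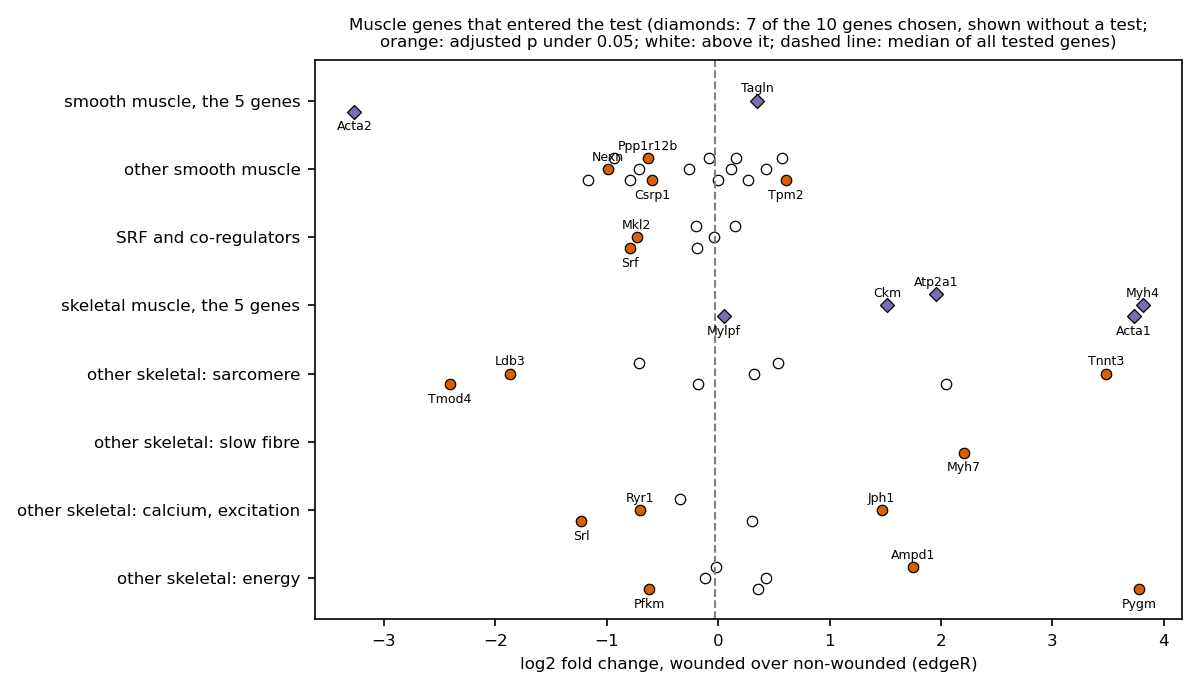
Log2 fold change of wounded over non-wounded epidermis from edgeR (x axis) for each gene that entered the test, by list (y axis). Diamonds are the chosen genes, orange circles passed at an adjusted p under 0.05, white circles did not, and the dashed line is the median of all tested genes at -0.03. Skeletal muscle genes spread from Tmod4 at -2.41 to Pygm at 3.78, and Acta2 at -3.27 lies apart from the other smooth muscle genes.

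The other genes named from these lists did not pass or were too low. Neb, nebulin of the thin filament, was at 2.16 ± 0.435 and 1.90 ± 0.654 CPM (adjusted p = 0.693), and passed as lower with log2 TPM (adjusted p = 0.0149 and 0.0175, in a range of 0.0149 to 0.974). Hrc, a calcium-binding protein of the reticulum, was at 2.02 ± 0.401 and 1.58 ± 0.669 CPM (adjusted p = 0.476), and also passed as lower with log2 TPM (adjusted p = 0.0428 and 0.0475, in a range of 0.0428 to 0.845). The enzymes Eno3 and Pgam2 were at 4.37 ± 0.881 and 1.24 ± 0.273 CPM in non-wounded and 4.02 ± 0.366 and 1.23 ± 0.563 CPM in wounded tissue. The fast troponin I, Tnni2, had 19 and 44 counts in non-wounded and wounded tissue, without a test. The slow fibre troponins Tnnc1, Tnni1 and Tnnt1 had 21, 24 and 8 counts in non-wounded and 6, 6 and 4 in wounded tissue, the opposite order to the slow myosin Myh7. Stac3, an adaptor of the calcium channel, had 17 in both.

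The 38 skeletal muscle genes too low for the test had 235 counts in non-wounded and 445 in wounded tissue. Of these, 28 had more counts in wounded and 7 more in non-wounded tissue, and 12 had no count in non-wounded tissue. The same split over all genes too low for the test was not computed, so nothing is read from it. The genes at 0 in all libraries were Myl3 of slow fibres and Ckmt2, the creatine kinase of mitochondria. Without the filter on low counts, 9 of the 59 genes passed as higher in place of 5, and 3955 over all genes in place of 3859.

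Genes of developing or regenerating muscle were near the floor. None of 10 entered the test, and together they had 34 counts in non-wounded and 48 in wounded tissue. The myogenic factors Myog and Myod1 had 14 and 0 counts in non-wounded and 20 and 5 in wounded tissue, Myh8 of perinatal muscle had 12 and 16, and the fusion gene Gm7325 had 1 and 3. Of 6 genes of heart muscle, 2 entered the test and neither passed, where 48.4% of all tested genes did. Tnnt2 was at 19.9 ± 2.31 and 17.4 ± 2.03 CPM (adjusted p = 0.283), and passed as lower with library totals alone (log2 fold change -0.51, adjusted p = 0.00998, in a range of 0.00998 to 0.628). Tnni3 was at 0.961 ± 0.491 and 0.587 ± 0.135 CPM (adjusted p = 0.286), and Myl7 and Myh6 had 7 and 2 counts in non-wounded and 8 and 4 in wounded tissue.

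Summed markers of fibroblasts, red blood cells and adipocytes were higher in wounded tissue, as were Acta1, Myh4, Atp2a1 and Ckm. The 59 other skeletal muscle genes had a summed level of 73.7 to 83.2 CPM in non-wounded and 55.6 to 65.2 CPM in wounded libraries. Of that sum, Tmod4 alone held 21.5 to 32.3 CPM in non-wounded and 4.26 to 6.27 CPM in wounded libraries. The lower sum in wounded tissue thus rests on Tmod4 and does not describe the list as a whole. Of 8 fibroblast genes, 6 of 7 tested passed as higher in the edgeR test, beside 24.0% of all tested genes. The summed level of the 8 was 10.4 to 12.5 CPM in non-wounded and 39.1 to 76.1 CPM in wounded libraries. Dcn, decorin of the dermal matrix, had 45, 16 and 27 counts in non-wounded and 124, 238 and 359 in wounded libraries of mice 1, 2 and 3 (log2 fold change 3.35, SE 0.47, adjusted p = 0.000273). Dcn was thus highest in wounded tissue of mouse 3, where Acta1 was highest in that of mouse 2. All 5 red blood cell genes passed as higher, beside the same 24.0%, with sums of 18.9 to 26.1 and 97.3 to 165 CPM. Of 6 adipocyte genes, 1 of 2 tested passed as higher, too few to set beside that share. Their sums were 0.457 to 0.904 and 2.99 to 8.41 CPM, and Lep was at 0 in all libraries. Most of the wounded sum was the gene that passed, Fabp4, named after its values were seen. It was at 0 to 0.341 CPM in non-wounded and 1.77 to 6.42 CPM in wounded libraries. The part of these cells in the result was not tested.

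Markers of vessel cells did not share 1 direction. Over all tested genes 24.0% passed as higher and 24.4% as lower, and from the few genes tested here no share is read. Of 8 mural cell genes, 2 of 5 tested passed as higher, Rgs5 (19 and 67 counts) and Mcam (323 and 510 counts), and Higd1b was at 0 in all libraries. The adjusted p of Rgs5 was 0.0355, and it was 0.0926 and 0.115 when non-wounded tissue of mouse 1 or 2 was left out and 0.0879 and 0.122 when wounded tissue of mouse 1 or 3 was (range 0.00801 to 0.122). It was also 0.0601 with library totals alone and 0.117 and 0.0799 with log2 TPM. The summed level of the 8 mural genes was 118 to 133 CPM in non-wounded and 95.5 to 120 CPM in wounded libraries, and lower in wounded tissue in each mouse. Most of it was Notch3, at 101 ± 5.45 and 83.5 ± 10.4 CPM, and Cspg4, at 21.5 ± 5.72 and 16.6 ± 3.62 CPM, and neither passed. The sum thus follows these 2 genes and not Rgs5 and Mcam, which were higher in wounded tissue. Of 8 endothelial genes, none of 2 tested passed, with sums of 2.17 to 2.77 and 2.44 to 3.83 CPM. Of 6 dermal papilla genes, the 1 tested, Rspo3, passed as lower. The sums of the 6 were 4.72 to 7.51 and 2.76 to 2.97 CPM, of which Rspo3 held 4.11 to 6.75 and 1.67 to 2.15 CPM. Of the 5 not tested, 2 had more counts in wounded and 3 more in non-wounded tissue. Crabp1, named after its values were seen, had 11 and 38 counts, the opposite order to Rspo3. The 5 Schwann cell genes summed to 50.5 to 61.0 and 113 to 155 CPM, most of it Mbp, with 1 of 2 tested higher and 1 lower. The part of these cells in the level of Acta2 was not tested.

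**Figure D4:**
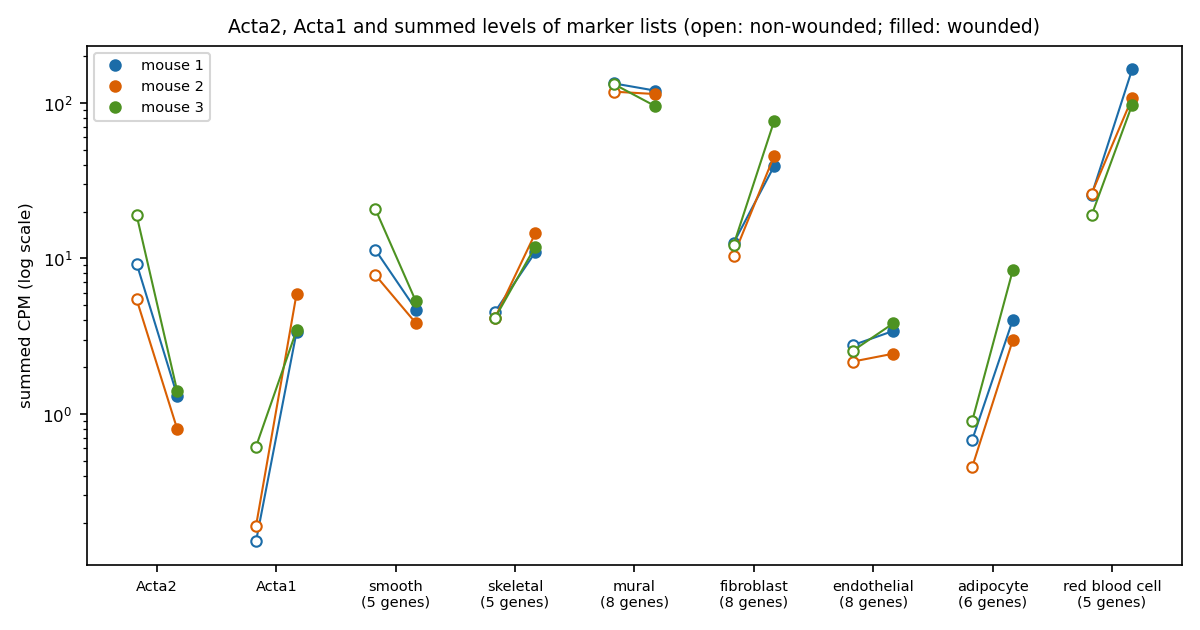
CPM of Acta2 and Acta1 and summed CPM of gene lists (y axis, log scale), with a line joining the non-wounded (open) and wounded (filled) library of each mouse. Fibroblast, adipocyte and red blood cell lists lie higher in each wounded library, as Acta1 does, and Acta2 lies lower. The mural list, most of it Notch3 and Cspg4, lies lower in the wounded library of each mouse. It is at 118 to 133 CPM in non-wounded and 95.5 to 120 CPM in wounded libraries.

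The genes with the pattern nearest to that of Acta2 over the 6 libraries were Chst12, Chst3, Edn2, Gm26788 and Sesn1, with a root mean square difference of 0.339, 0.437, 0.452, 0.481 and 0.533 in centred log2 CPM. The search covered 13846 genes whose mean was 1 CPM or more. Chst12 and Chst3 encode carbohydrate sulfotransferases, Edn2 encodes endothelin 2, a peptide that contracts smooth muscle, and Sesn1 encodes a stress-response protein. None is on the smooth muscle lists. Nearest to Acta1 were Cxcl2, Sprr2d, Irf4, Gm7897 and Col1a2, at 0.308, 0.313, 0.363, 0.406 and 0.416. Cxcl2 is a chemokine that attracts neutrophils, Sprr2d a protein of the cornified envelope, Irf4 a transcription factor of lymphoid and myeloid cells, and Col1a2 a chain of type I collagen. Likeness over 6 libraries in 2 groups is mostly the difference between the groups.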

How the data were processed

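Polyadenylated RNA of 6 epidermis libraries had been sequenced. Estimated counts and TPM for each gene symbol were deposited by the authors. Per the submitters' processing notes, Salmon and edgeR were used with build mm10. No source used here gives their versions, the annotation release or the strand setting. Estimated counts were rounded, filtered with filterByExpr (16079 of 47455 kept), scaled by TMM (factors 1.12 in each non-wounded and 0.887 to 0.898 in wounded libraries) and fitted in R 4.3.3 with edgeR 4.0.16 (glmQLFit and its quasi-likelihood test), without a mouse term, with Benjamini-Hochberg adjustment over all genes tested. CPM are counts per total over genes tested times the TMM factor. SE were derived from the F statistic. The floor for a 0 is 3 counts in a library, and intervals and floors cover counting error only. With 3 libraries a group and the pairing by mouse set aside, the smallest two-sided exact p is 0.1. The fit was also run on simulated counts with a far smaller share of changed genes and no pairing by mouse. No result here rests on that run.

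The labels place both libraries of a number in 1 mouse. Deviations from the group means correlated within mice at 0.164, 0.0606 and 0.189 over 13852 genes. The 10 genes and all lists were chosen with earlier results of these data known. The rule for named genes took the 10 genes, 4 of each muscle list by TPM and 3 by p, the actins, the fibre myosins, and the 5 genes nearest in pattern to Acta2 and to Acta1. Nearness is the root mean square difference of centred log2 CPM with a prior count of 2. Alternatives were library totals, DESeq2 size factors and upper-quartile factors in edgeR, no filter, the mouse as a block, DESeq2 1.42.0, limma 3.58.1 on log2(TPM + 1) and log2(TPM + 0.1), and each library left out. Coordinates and transcripts are from GENCODE M21 on GRCm38 and promoters from RefSeq on GRCm38.p6.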

Additional observations from a re-analysis of the deposited data

How the results depend on the processing

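Relative to TMM, log2 fold changes moved by a median of -0.32 with library totals, -0.15 with upper-quartile factors, and -0.29 and -0.33 with log2(TPM + 1) and log2(TPM + 0.1). Over all genes, 2168 were higher and 6655 lower with library totals, 1904 and 1895 were higher and 5556 and 5540 lower with the TPM fits, 2979 were higher and 5053 lower with upper-quartile factors, and between 3153 and 3597 were higher and between 3147 and 3600 lower with 1 library left out. Of the 20 other smooth muscle genes, 0 were higher and 5 lower with library totals and with both TPM fits, 5 were lower with upper-quartile factors, 2 were higher with the mouse as a replicate block, and 1 or 2 were higher with 1 library left out. Of the 59 other skeletal muscle genes, 9 were higher without the filter on low counts, 3 were higher with both TPM fits, and 2 or 3 were lower with 1 library left out. Actb was at -0.027 with library totals and -0.067 with both TPM fits. The cause of these changes was not tested.

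The mouse as a replicate block gave 4212 higher and 4351 lower genes. Among the genes named with a test it changed the calls of Ldb3 and Tpm1, given above, and no other. Of 42 named genes outside the 10, 16 changed their call under at least 1 alternative. Of the called genes 1, Actb, had the opposite sign under an alternative, and with genes that did not pass included, 7 had.

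Over the alternatives, the log2 fold change ranged from -3.60 to -2.40 for Acta2, from 0.01 to 0.46 for Tagln, from 1.75 to 4.59 for Acta1, from 0.25 to 4.69 for Myh4, from 0.60 to 2.02 for Atp2a1, from 0.93 to 1.92 for Ckm and from -0.34 to 0.25 for Mylpf. The lowest value for Myh4 comes from log2(TPM + 1), a scale that understates the change of low genes. Depth limits Myh11, Cnn1 and Des, with 17 counts in all non-wounded libraries, and Myh4, with 6.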
